A study of Mus musculus with 10 samples.

Results

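The 9 genes of limb and positional transcription factors form the subject here, and they were chosen by name. They are the homeodomain factors Pitx1 and Lhx8, the T-box factors Tbx4, Tbx5 and Tbx15, the basic helix-loop-helix factors Hand1 and Hand2, and the coactivators Eya1 and Eya2. All 9 genes were on the array, with 10 probes (2 for Hand1), among 34724 gene names in all. Of the 9 genes, 6 entered the test because some group had a probe well above background on each of its 2 arrays, and 22600 genes were tested in all. The other members, Tbx4, Tbx5 and Hand1, did not pass this filter and are described by their signals only.

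Total RNA of cultured mouse mesenchymal stem cells (MSCs) on the FVB strain background was hybridised to 10 single-colour arrays, 1 per culture. There were 5 groups of 2 independent cultures. Cells from fat (ASC) and from bone marrow (BM-MSC) were taken as wild type and as Rb-/-p53-/- cells, called null below. By the growth protocol the null cells carried loxP-flanked Rb and p53 alleles, spent 10 days in osteogenic medium, and were then infected with Ad-CMV-Cre, an adenovirus that carries the Cre recombinase. Their source labels instead name Rb-/-p53-/- mice. Wild-type cells are not labelled as primed or infected, so loss of the genes, priming and infection cannot be told apart. The last group was a tumor line, from a subcutaneous tumor that primed null BM-MSC formed in NSG mice. Part of its labels say tumor and part say cell line. Whether duplicates came from separate animals or tumors is not stated, so p-values cover the spread between cultures only. The labels call null BM-MSC and the tumor line tumorigenic and the other groups non-tumorigenic. All cells grew in complete MSC medium and were between passages 2 and 5.

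Several of these factors mark where along the body or the limb a mesenchymal cell arose. Pitx1 acts in the hindlimb field, where it lies upstream of Tbx4, while Tbx5 acts in the forelimb field. Tbx15 works in dermal, skeletal and subcutaneous fat precursors, and Hand2 in the posterior limb bud, the heart and the neural crest. Eya proteins bind no DNA themselves and act through DNA-binding partners, and Lhx8 is a LIM homeodomain factor of the facial mesenchyme and the forebrain.

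The values below are log2 signals relative to the 75th percentile of the same array, so a value of 0 means a signal at that percentile. Signals of different probes are not compared with each other. A probe counted as well above background by the scanner software's flag, and the dimmest such signals lay between -5.80 and -5.04 on the 10 arrays. Where no array of a group reached that mark, the change is given as a lower bound ("at least") and not as a measured fold. An adjusted p beside a bound tests the change of the signals as read, dim arrays included, and not the bound. Such genes entered the test through their bright groups.

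Stretches of the member probes are shown because the probe decides what is read, and 1 of them turned out to hold a simple repeat. Capitals mark a polyadenylation signal (AATAAA or ATTAAA) in the probes of Pitx1 and Eya2 and a run of alternating G and T in the others. The first of these windows lie at chr13:55926424-55926453 (minus strand), chr2:165597096-165597125 (plus strand) and chr1:14159998-14160027 (minus strand), in that order, in build mm9 as the array files give it. The last 2 belong to probes for Itsn1 and Skint7, the genes whose signal most resembled that of the Eya1 probe and for which a position was given. They lie at chr16:91913786-91913815 and chr4:111655244-111655273, both on the plus strand. An mm9 gene annotation was not used here, so no exon or UTR is assigned.
Pitx1: ccatgtacgtctATTAAAaccatagtcgga
Eya2: ataaaggcattcAATAAAaaccacgtttac
Eya1: ttgtgtacgtgaGTGTGTGTGTGTGTGTGT
Itsn1: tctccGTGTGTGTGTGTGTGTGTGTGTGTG
Skint7: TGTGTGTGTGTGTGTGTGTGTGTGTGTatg

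The arrays were of like brightness, with a 75th percentile of 483 to 621 scanner units, 53.3% to 58.4% of spots well above background and no saturated spot. Duplicates correlated at r = 0.994 to 0.996 across genes. All 11 mesenchymal markers, among them Pdgfra, Thy1 and Col1a1, passed the background mark on all 10 arrays. Rb1 and Trp53 followed the labels unevenly. Null ASC kept 10.5% of the Rb1 signal and 1.71% of the Trp53 signal of wild-type ASC, while null BM-MSC kept 40.2% and 29.3% of those of wild-type BM-MSC. The Trp53 probe was well above background on 1 of the 2 null ASC arrays, and its log2 change there went from -5.87 to -3.91 with normexp background correction. In the tumor line the Trp53 probe was not well above background. The tumor line arrays were alone on their slide and the other 8 arrays shared 1 slide, so slide and tumor line cannot be told apart. In these bulk cultures fewer cells of a type and less RNA per cell cannot be told apart either.

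**Figure D1:**
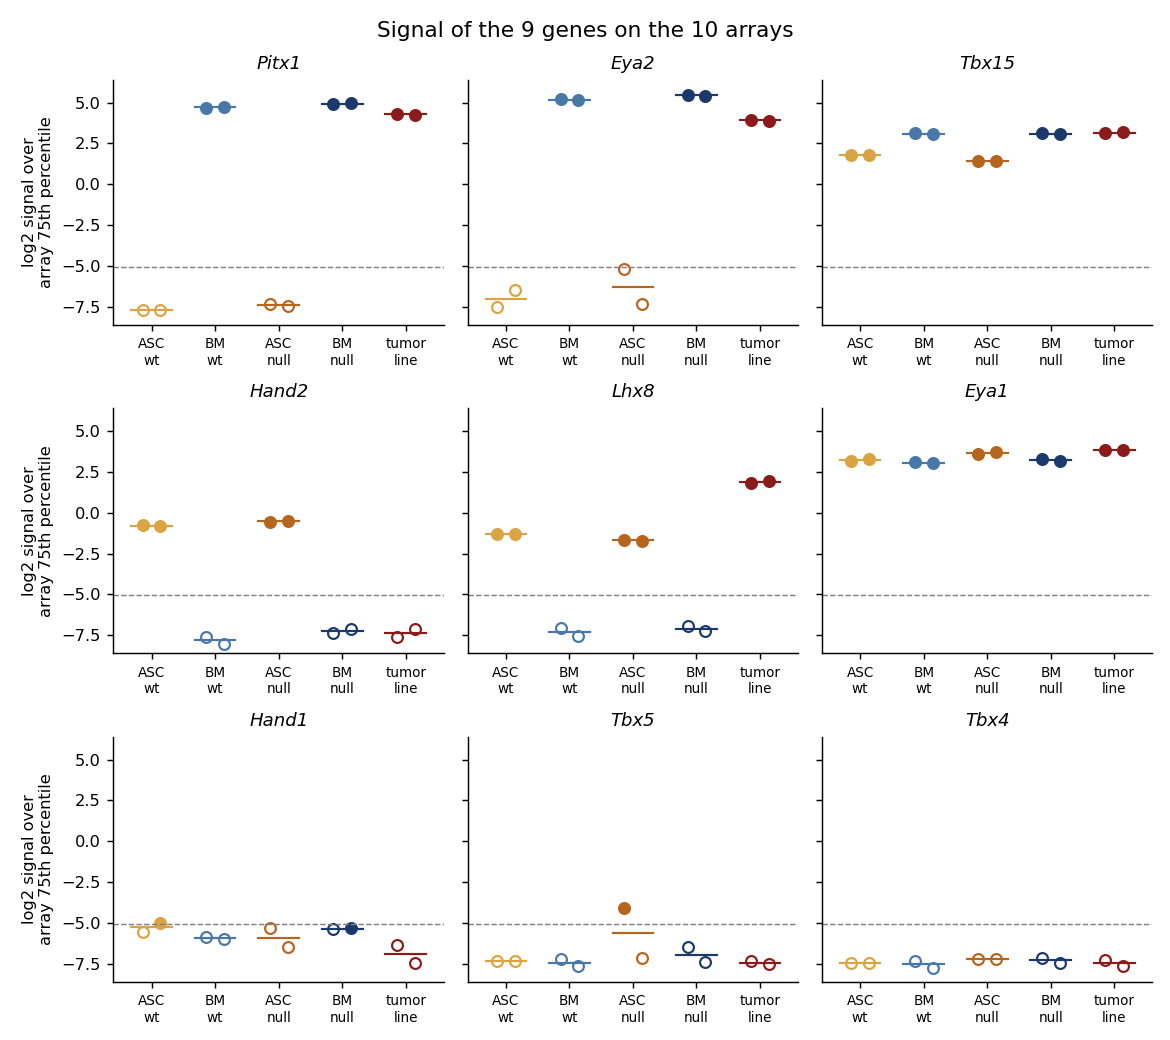
Log2 signal over the array's 75th percentile (y axis) for each of the 9 genes on the 10 arrays, grouped by culture (x axis). Filled points were well above background, open points were not, short lines are means of 2 arrays, and the dashed line at -5.04 is the highest of the per-array minima among signals well above background. Pitx1 and Eya2 are filled in the marrow groups and the tumor line only, Hand2 in the ASC groups only, and Lhx8 in the ASC groups and the tumor line.

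The cells of the 2 tissues carried different sets of these factors, in wild-type and in null cultures alike. Pitx1, Eya2 and Tbx15 were higher in BM-MSC, and Hand2 and Lhx8 were higher in ASC. In wild-type cells 3 of the 6 genes tested were higher in BM-MSC, 2 were lower and 1 did not pass the test, where 53.6% of all genes tested passed it. In null cells 3 were higher and 3 lower, where 54.8% of all genes passed. Of the 3 lower, 1 was the Eya1 probe, at -0.43 ± 0.07 (log2, adjusted p = 0.00258, limma), whose repeat is described below. The same probe was the 1 that did not pass in wild-type cells.

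Pitx1, the hindlimb homeodomain factor, read 4.70 and 4.71 on the wild-type BM-MSC arrays, and 4.91 and 4.97 in null BM-MSC. On the ASC arrays it read -7.67 and -7.67 in wild-type cells and -7.31 and -7.45 in null cells, not well above background on any. The marrow and fat groups lay far apart. Pitx1 was at least 1098-fold higher in wild-type BM-MSC than in wild-type ASC (adjusted p = 2.11e-09, limma with Benjamini-Hochberg adjustment). In null cells it was at least 1086-fold higher (adjusted p = 2.17e-09).

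Eya2, a transcriptional coactivator, split the groups in the same way. It read 5.20 and 5.16 in wild-type BM-MSC and 5.48 and 5.40 in null BM-MSC. None of the 4 ASC arrays was well above background, and these read -7.53, -6.50, -5.19 and -7.34. Eya2 was at least 1523-fold higher in wild-type BM-MSC than in ASC (adjusted p = 1.30e-05, limma) and, in the null cells, at least 1538-fold (adjusted p = 1.45e-05).

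Tbx15 was well above background in all 5 groups and differed less. Wild-type ASC read 1.81 on both arrays and wild-type BM-MSC 3.109 and 3.0995, a difference of 1.30 ± 0.04 (SE, log2), or 2.45-fold (adjusted p = 1.26e-06, limma). Null ASC read 1.43 and 1.45 and null BM-MSC 3.11 and 3.09, a difference of 1.66 ± 0.04, or 3.16-fold (adjusted p = 4.22e-07). The duplicates of a group lay within 0.1 of each other, and no marrow array overlapped an ASC array.

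Hand2, the posterior limb factor, had the opposite pattern. It read -0.75 and -0.81 in wild-type ASC and -0.58 and -0.48 in null ASC. The marrow arrays read -7.59 and -8.01 in wild-type cells and -7.37 and -7.14 in null cells, all below the mark. Hand2 was at least 27.3-fold higher in wild-type ASC than in wild-type BM-MSC (adjusted p = 7.50e-07, limma) and at least 26.5-fold higher in null ASC (adjusted p = 8.00e-07).

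Lhx8 followed Hand2 in these 4 groups. Its signals were -1.29 and -1.33 in wild-type ASC, -1.68 and -1.70 in null ASC, -7.08 and -7.51 in wild-type BM-MSC, and -6.93 and -7.27 in null BM-MSC. The 4 marrow values were below the mark. The ASC level was at least 18.9-fold higher in wild-type cells (adjusted p = 6.53e-07, limma) and at least 11.9-fold higher in null cells (adjusted p = 8.87e-07).

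The bounds depend on the scale. After normexp background correction with an offset of 50, which lifts all dim signals, the log2 bounds in wild-type cells fell from 10.10 to 7.73 for Pitx1, from 10.57 to 8.07 for Eya2, from 4.77 to 2.60 for Hand2 and from 4.24 to 1.80 for Lhx8. The direction held for all 4 genes. Markers of neural and Schwann cells moved with the tissue as well. The summed level of the 5 markers was 13.5 to 18.0 times the array's 75th percentile in wild-type BM-MSC and 60.9 to 62.6 in null BM-MSC, against 0.553 to 0.708 in the ASC groups. S100b, which cartilage cells also express, made up most of it, while Sox10 read -4.95 in wild-type BM-MSC and was not well above background in null BM-MSC. In the tumor line, where Pitx1 and Eya2 were far above background, that sum was 0.983 to 0.986. Adipocyte markers, 5 of 5 on the array with Lep below the mark throughout, summed to 3.58 to 4.42 in wild-type BM-MSC against 0.918 to 0.997 in wild-type ASC, but to 0.269 to 0.306 in null BM-MSC against 1.41 to 1.56 in null ASC. Fabp4 made up most of each sum, at means of 1.96 and -2.17 in wild-type and null BM-MSC and -0.17 and 0.50 in wild-type and null ASC. Adipoq, Plin1 and Cidec lay near or below the mark, with means of -5.14 or lower in these groups. The part of these cells in the differences between tissues was not tested.

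**Figure D2:**
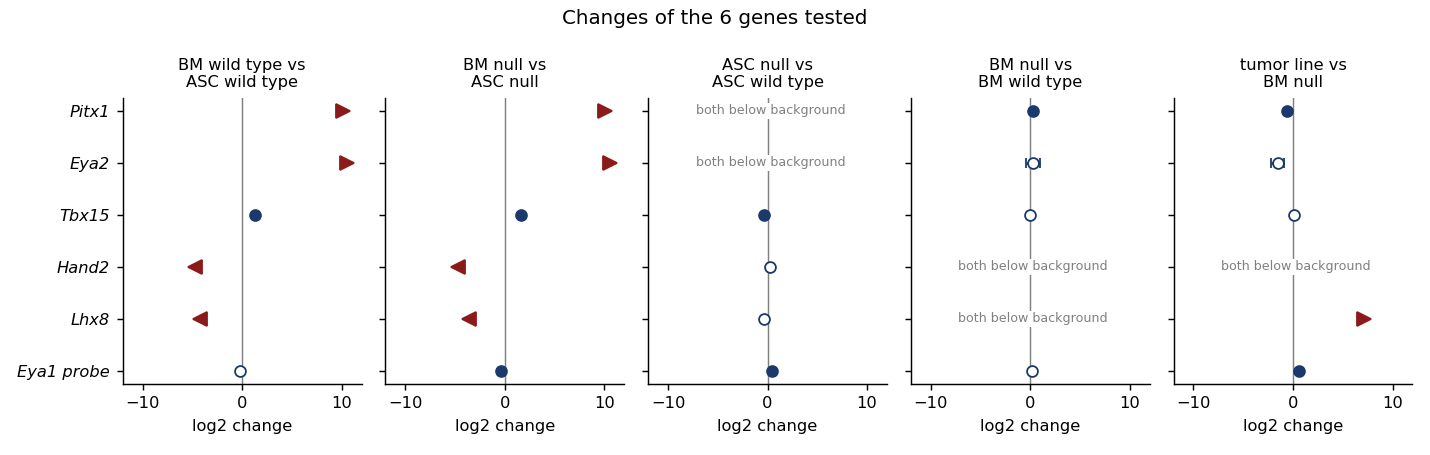
Log2 change (x axis) of the 6 genes tested in 5 comparisons. Circles with bars are measured changes ± SE, filled where the adjusted p was below 0.05, and triangles are lower bounds that point to the direction of the change. The triangles of Pitx1 and Eya2 lie beyond 10 toward BM-MSC, and that of Lhx8 in the tumor line lies at 7.17.

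Promoters of Hand2 and Lhx8, which were both read in ASC and in neither marrow group, are shown for their sequence. The RefSeq promoter table (GRCm38.p6) held 3 of the 9 members, Hand2, Lhx8 and Tbx4. The 250 bases before the start lie at chr8:57320733-57320982 (plus strand) for Hand2 and at chr3:154330561-154330810 (minus strand) for Lhx8. Capitals mark matches to an E-box, CANNTG, the site of basic helix-loop-helix factors, or to TAATTA, a homeodomain core. GGTGTGA, a core of T-box sites, and TAATCC, the Pitx core, were searched on both strands as well, and the motifs overlap no other match.
Hand2: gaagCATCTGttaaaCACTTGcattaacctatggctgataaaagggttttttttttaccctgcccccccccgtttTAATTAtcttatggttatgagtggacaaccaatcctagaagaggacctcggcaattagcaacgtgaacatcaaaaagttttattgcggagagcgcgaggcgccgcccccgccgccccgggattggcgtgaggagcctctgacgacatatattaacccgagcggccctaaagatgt
Lhx8: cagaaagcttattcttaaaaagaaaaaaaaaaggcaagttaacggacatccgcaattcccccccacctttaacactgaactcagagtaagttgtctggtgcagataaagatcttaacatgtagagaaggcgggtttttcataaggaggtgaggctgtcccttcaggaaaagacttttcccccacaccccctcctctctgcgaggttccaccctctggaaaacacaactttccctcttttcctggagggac
Hand2 held 2 E-boxes, CATCTG and CACTTG, and 1 TAATTA. Lhx8 held none of the 4 motifs in this window. Of 32851 promoters of the same length, 66.2% held an E-box, 4.84% TAATTA, 3.33% GGTGTGA and 6.25% TAATCC.

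Between null and wild-type cells of the same tissue the members above background moved little. Pitx1 and Eya2 were below the mark on all ASC arrays, and Hand2 and Lhx8 on all marrow arrays, so they could not be called there. In ASC 2 of the 6 genes tested changed, 1 up and 1 down, where 41.0% of all genes tested passed. The rise was that of the Eya1 probe, whose repeat is described below. In BM-MSC 1 rose, where 39.1% passed. Tbx15 fell by 0.37 ± 0.04 (log2) in null ASC, to 0.776 of the wild-type level (adjusted p = 0.000655, limma), with both null arrays below both wild-type arrays. In BM-MSC its null and wild-type arrays overlapped and the change was 0.00 ± 0.04 (adjusted p = 0.998). The difference between these 2 effects was 0.37 ± 0.06 (adjusted p = 0.00455), where 31.7% of all genes passed that test. Tbx15 was the member of the 6 that passed it. Besides Tbx15 only the Eya1 probe was well above background in both tissues, so the effects of the other members could not be compared between tissues.

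Markers of other cell types moved with the null state as well. The summed level of the 10 leukocyte markers was 29.2 to 33.9 times the array's 75th percentile in wild-type ASC and 16.7 to 17.8 in null ASC, with 8 and 7 of the 10 above the mark on both arrays. It was 29.6 to 29.7 in wild-type BM-MSC, 23.3 to 24.3 in null BM-MSC and 14.1 to 15.1 in the tumor line. Itgam, an integrin chain of myeloid cells, had means of 4.50 and 3.48 in wild-type and null ASC, and Lyz2, the lysozyme of macrophages, -1.96 and -4.95. The 5 epithelial markers summed to 0.854 to 0.999 in null BM-MSC against at most 0.265 in the other groups. Krt14 made up most of the sum in null BM-MSC, at a mean of -0.66 against -2.89 in wild-type BM-MSC. Cdh1, the cadherin of epithelia, read -2.45 in null BM-MSC and was below the mark elsewhere. Krt5 and Krt14 passed the mark on all 10 arrays, and Epcam on none. The part of these cells in the changes of the members was not tested.

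Hand2 and Lhx8 kept their presence in null ASC. The change of Hand2 was 0.25 ± 0.20 (adjusted p = 0.360, limma) and that of Lhx8 was -0.38 ± 0.16 (adjusted p = 0.112). Dim arrays that share the fit raise both SEs. For Hand2 the standard deviations were 0.04 and 0.07 in the ASC groups and 0.16 to 0.34 in the groups below the mark. For Lhx8 they were 0.03 and 0.02 in the ASC groups and 0.31 and 0.24 in the marrow groups. The Lhx8 change passed the threshold in other settings, at an adjusted p of 0.0236 with the ASC arrays alone and 0.0161 on the authors' series matrix values. Pitx1 rose by 0.23 ± 0.06 in null BM-MSC, or 1.18-fold (adjusted p = 0.0199). This call was lost when any 1 of the 4 marrow arrays was left out (adjusted p between 0.0532 and 0.106), on the series matrix values (0.113) and with no filter on dim genes (0.0594). Eya2 differed by 0.26 ± 0.67 in null BM-MSC (adjusted p = 0.799). Its large SE comes from the dim ASC arrays that share the fit, and with the 4 marrow arrays alone the adjusted p was 0.0467.

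The tumor line read Pitx1, Eya2 and Tbx15, as both marrow groups did, and also Lhx8, which was below the mark on all marrow arrays. Against null BM-MSC 2 of the 6 genes tested were higher and 1 was lower, where 69.0% of all genes passed. Against wild-type BM-MSC there were again 2 higher and 1 lower, where 67.5% passed. These 2 comparisons share the tumor line arrays. With ASC the tumor line differed in 5 of 6 genes (null, 65.5% of all genes) and in 6 of 6 (wild type, 69.8%). The Eya1 probe was 1 of the 2 higher against each marrow group and 1 of the 6 against wild-type ASC. Against null ASC it did not pass.

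Lhx8 read 1.85 and 1.97 in the tumor line, above every other array. It was at least 144-fold higher than in null BM-MSC (adjusted p = 9.45e-08, limma) and at least 176-fold higher than in wild-type BM-MSC (adjusted p = 9.43e-08). Against the ASC groups the difference could be measured on both sides. It was 3.60 ± 0.16 (log2), or 12.1-fold, over null ASC (adjusted p = 3.30e-06) and 3.22 ± 0.16, or 9.31-fold, over wild-type ASC (adjusted p = 4.48e-06). With normexp correction the log2 bound over null BM-MSC fell from 7.17 to 4.49. In the order of the groups, tumor line, wild-type ASC, null ASC and marrow, the 2 ASC groups were the neighbours above background that did not differ beyond the threshold.

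Hand2, which went with Lhx8 in the other 4 groups, was not well above background in the tumor line, at -7.61 and -7.12. It was at least 30.9-fold lower there than in null ASC (adjusted p = 5.44e-07, limma) and at least 26.0-fold lower than in wild-type ASC (adjusted p = 4.61e-07). Over the whole array, 265 genes were well above background on all ASC arrays and on no marrow array. Of these, 87 (32.8%) passed the mark on both tumor line arrays and 158 (59.6%) on neither. Lhx8 was among the former and Hand2 among the latter. The reverse pattern, all marrow arrays and no ASC array, held for 270 genes. Of those, 137 (50.7%) passed it on both tumor line arrays, Pitx1 and Eya2 among them.

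Pitx1 read 4.31 and 4.26 in the tumor line. It was lower than in null BM-MSC by 0.65 on the log2 scale, a change of -0.65 ± 0.06 (adjusted p = 7.89e-05, limma), and differed from wild-type BM-MSC by -0.42 ± 0.06 (adjusted p = 0.000748). It stayed at least 691-fold above null ASC. In order, null BM-MSC, wild-type BM-MSC and the tumor line each differed from the next past the threshold, within the limits given above for the first pair.

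Eya2 read 3.92 and 3.90 in the tumor line, below all marrow arrays. The difference from null BM-MSC was -1.53 ± 0.67 and did not pass the threshold (adjusted p = 0.0812, limma). That from wild-type BM-MSC was -1.27 ± 0.67 (adjusted p = 0.137). Here too the dim ASC arrays set the SE. With only the arrays compared the adjusted p was 0.000602 and 0.000755, and without either 1 of the null ASC arrays it was 0.00747 and 0.0157. Eya2 remained at least 532-fold above null ASC (adjusted p = 1.87e-05).

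Tbx15 read 3.13 and 3.19 in the tumor line. It differed from null BM-MSC by 0.06 ± 0.04 (adjusted p = 0.268, limma) and from wild-type BM-MSC by 0.06 ± 0.04 (adjusted p = 0.271). The 3 marrow-derived groups thus did not differ from their neighbours beyond the threshold, and all lay above wild-type ASC, which lay above null ASC.

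Other marks of the tumor line moved beside these results, and their part in them was not tested. The summed level of the erythroid markers, 4 of 5 of them on the array, was 0.956 to 1.03 times the array's 75th percentile against at most 0.239 elsewhere. Hba-a1 made up most of it, at a mean of -0.12 in the tumor line and -4.10 in null BM-MSC. Klf1, an erythroid transcription factor, passed the mark on both tumor line arrays (mean -4.11), on 1 null ASC array and on no marrow array, and Alas2 was below it on all 10 arrays. The Y-linked gene Ddx3y, chosen after its values were seen, read 1.65 in wild-type and 1.95 in null BM-MSC (means of 2 arrays) and -7.53 in the tumor line, below the mark. In ASC it read -0.57 in wild-type and -1.52 in null cells, so it moved with the tissue too, at 2.22 ± 0.10 in wild-type and 3.47 ± 0.10 in null BM-MSC over ASC. Eif2s3y and Uty, also Y-linked, had means of -0.77 and -3.30 in wild-type BM-MSC and -0.34 and -3.22 in null BM-MSC. They read -7.69 and -7.52 in the tumor line, below the mark. In ASC their means were -3.19 and -5.70 in wild-type and -3.74 and -6.23 in null cells. Kdm5d, Y-linked as well, passed the mark on 1 wild-type BM-MSC array only. None of the 6 skeletal muscle markers passed the mark on both arrays of any group. Of the 6 endothelial markers, Pecam1 and Kdr passed it on all 10 arrays, Emcn on the ASC arrays, and Cdh5, Tek and Tie1 on none. Their summed level was 2.78 to 3.36 in the tumor line and 3.54 to 4.56 in the other groups.

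The Eya1 probe was well above background on all 10 arrays, but its signal cannot be read as Eya1 alone. The probe holds an unbroken run of 34 alternating G and T bases among its 60, where the other member probes hold runs of 2 to 5. Its signals were 3.18 and 3.30 in wild-type ASC, 3.12 and 3.02 in wild-type BM-MSC, 3.62 and 3.74 in null ASC, 3.31 and 3.19 in null BM-MSC, and 3.85 and 3.86 in the tumor line. By the test it rose in null ASC by 0.44 ± 0.07 (adjusted p = 0.00353, limma). It was higher in the tumor line than in null BM-MSC by 0.60 ± 0.07 (adjusted p = 0.000372) and than in wild-type BM-MSC by 0.79 ± 0.07 (adjusted p = 0.000100). In null BM-MSC against null ASC the change was -0.43 ± 0.07 (adjusted p = 0.00258). In the tumor line against wild-type ASC it was 0.61 ± 0.07 (adjusted p = 0.000333). The probe is counted with these calls in the member counts above.

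Another 50 probes on the array, aimed at other genes, hold a GT run of at least 20 bases. All 50 were well above background on all 10 arrays, where 45.4% of all probes were. Their profiles over the arrays, each taken relative to the probe's own mean, lay close to that of the Eya1 probe, with a median root mean square difference of 0.057 (log2). For the 25212 probes with shorter runs that were well above background on all 10 arrays this median was 0.471. Of the repeat probes 48 (96.0%) lay within 0.2 of the Eya1 profile, against 4.33% of the others. The median change of the repeat probes was 0.43 in null ASC, 0.59 in the tumor line against null BM-MSC and 0.79 against wild-type BM-MSC, beside 0.44, 0.60 and 0.79 for the Eya1 probe.

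**Figure D3:**
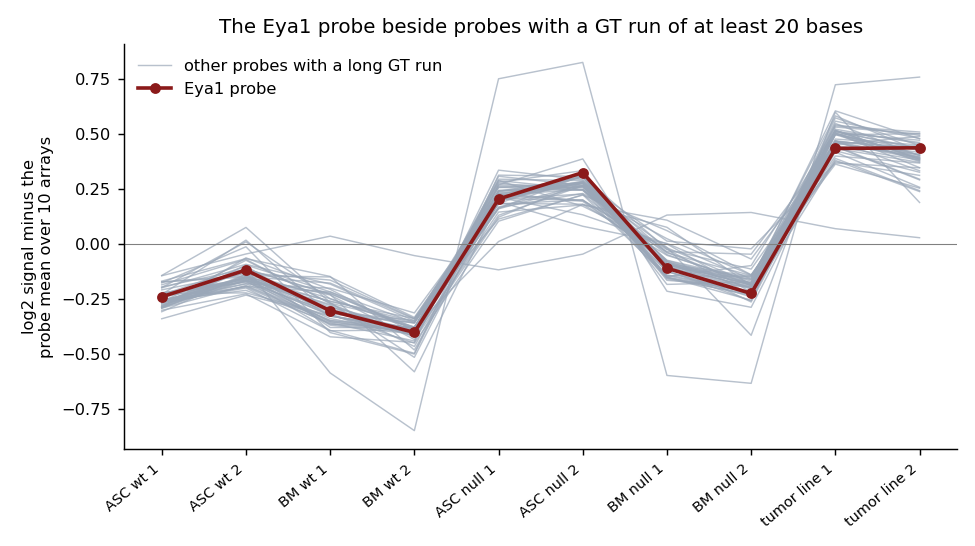
Log2 signal minus the probe's mean over the 10 arrays (y axis) on each array (x axis) for the Eya1 probe (red) and 50 other probes that hold a GT run of at least 20 bases (grey). The Eya1 line lies within the bundle of the others, 48 of which are within a root mean square difference of 0.2 from it.

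The remaining members gave little or no signal. Tbx4, the hindlimb T-box factor that lies downstream of Pitx1, was not well above background on any array and read between -7.74 and -7.12, in the marrow groups with strong Pitx1 as in the others. Tbx5, its forelimb counterpart, was well above background on 1 array, a null ASC culture at -4.12, while the duplicate read -7.18. Hand1 had 1 probe below the mark on all 10 arrays. Its second probe was above the mark on 1 wild-type ASC array at -4.98 and 1 null BM-MSC array at -5.33, in each case with a duplicate below it (-5.56 and -5.36). These genes were not tested.

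The genes whose profiles over the 10 arrays were nearest to each member were found among 14672 genes by the root mean square difference of log2 values centred on each gene's mean. Nearest to Pitx1 were Casp1 at 0.56, Rpl39l at 0.65 and Eya2 at 0.70, beside a standard deviation of the Pitx1 profile itself of 5.96. Casp1 encodes a protease of the inflammasome, and it was also nearest to Eya2, at 0.58. Its mean was 4.42 in wild-type and 4.31 in null BM-MSC, 3.099 in the tumor line, and -7.37 and -7.15 in the ASC groups. For Tbx15 the nearest were S100a13 at 0.093, Cnp at 0.13 and Asph at 0.15, in a profile with a standard deviation of only 0.74.

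Nearest to Hand2 were Pcnx2 at 0.27, Hoxa11os at 0.29 and Xlr at 0.38, each dim in the marrow groups and the tumor line or, for Hoxa11os, far lower there. Hoxa11os, an antisense transcript of the Hoxa11 locus, had means of 4.25 and 4.31 in the ASC groups and -2.84, -2.21 and -3.07 in the others. Lhx8 had looser neighbours, Ppp1r9a at 0.55, Elapor2 at 1.12 and Agtr1a at 1.16. Ppp1r9a, which encodes an actin-binding scaffold of nerve cells, had means of -1.37 and -2.45 in the ASC groups, 0.29 in the tumor line and at most -7.56 in BM-MSC. These profiles share the same 10 arrays, and the likeness is given as a description.

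Partner and neighbour genes were taken from 5 lists with 79 genes, all on the array, of which 60 were tested. In wild-type BM-MSC against ASC 27 were higher, 16 lower and 17 did not pass, which is 71.7% called beside 53.6% of all genes. In the null cells 22 were higher and 22 lower (73.3% beside 54.8%). The median change of these 60 genes was -0.04 in wild-type and 0.08 in null cells, beside -0.05 and -0.02 over all genes.

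Among 29 limb bud patterning genes, 25 of them tested, 12 were higher in wild-type BM-MSC than in ASC and 6 were lower. Irx3, a proximal limb homeodomain gene, was higher by 8.07 ± 0.19 (adjusted p = 4.21e-07, limma), and Prrx2, a homeodomain gene of limb mesenchyme, by 6.97 ± 0.07 (adjusted p = 1.97e-08). Fgf10, the mesenchymal signal for limb outgrowth and a T-box target in the limb, was lower by 3.94, a change of -3.94 ± 0.08 (adjusted p = 2.17e-07). Meis2, a proximal marker, changed by -1.92 ± 0.05.

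Of 12 other T-box genes 5 were tested. Tbx18 was higher in wild-type BM-MSC by 3.54 ± 0.07 and Tbx3 lower, at -2.50 ± 0.05. Of 10 genes of the network of Eya and Dach factors 7 were tested, with 3 higher and 3 lower. Eya4, a relative of Eya2, was higher by 4.07 ± 0.09. In the group of Hand and Twist partners 8 of 10 tested were higher, among them the tendon factor Scx at 3.02 ± 0.07, and Twist2 was the 1 that was lower, at -2.59 ± 0.06. In null cells Irx3 (7.96) and Eya4 (3.80) were again higher in BM-MSC, and Fgf10 (-2.76), Tbx3 (-1.70) and Twist2 (-3.56) lower. With normexp correction the wild-type differences came to 6.05 for Irx3, 3.45 for Eya4 and 2.90 for Tbx18, and those in null cells to 6.54 for Irx3 and 3.18 for Eya4.

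**Figure D4:**
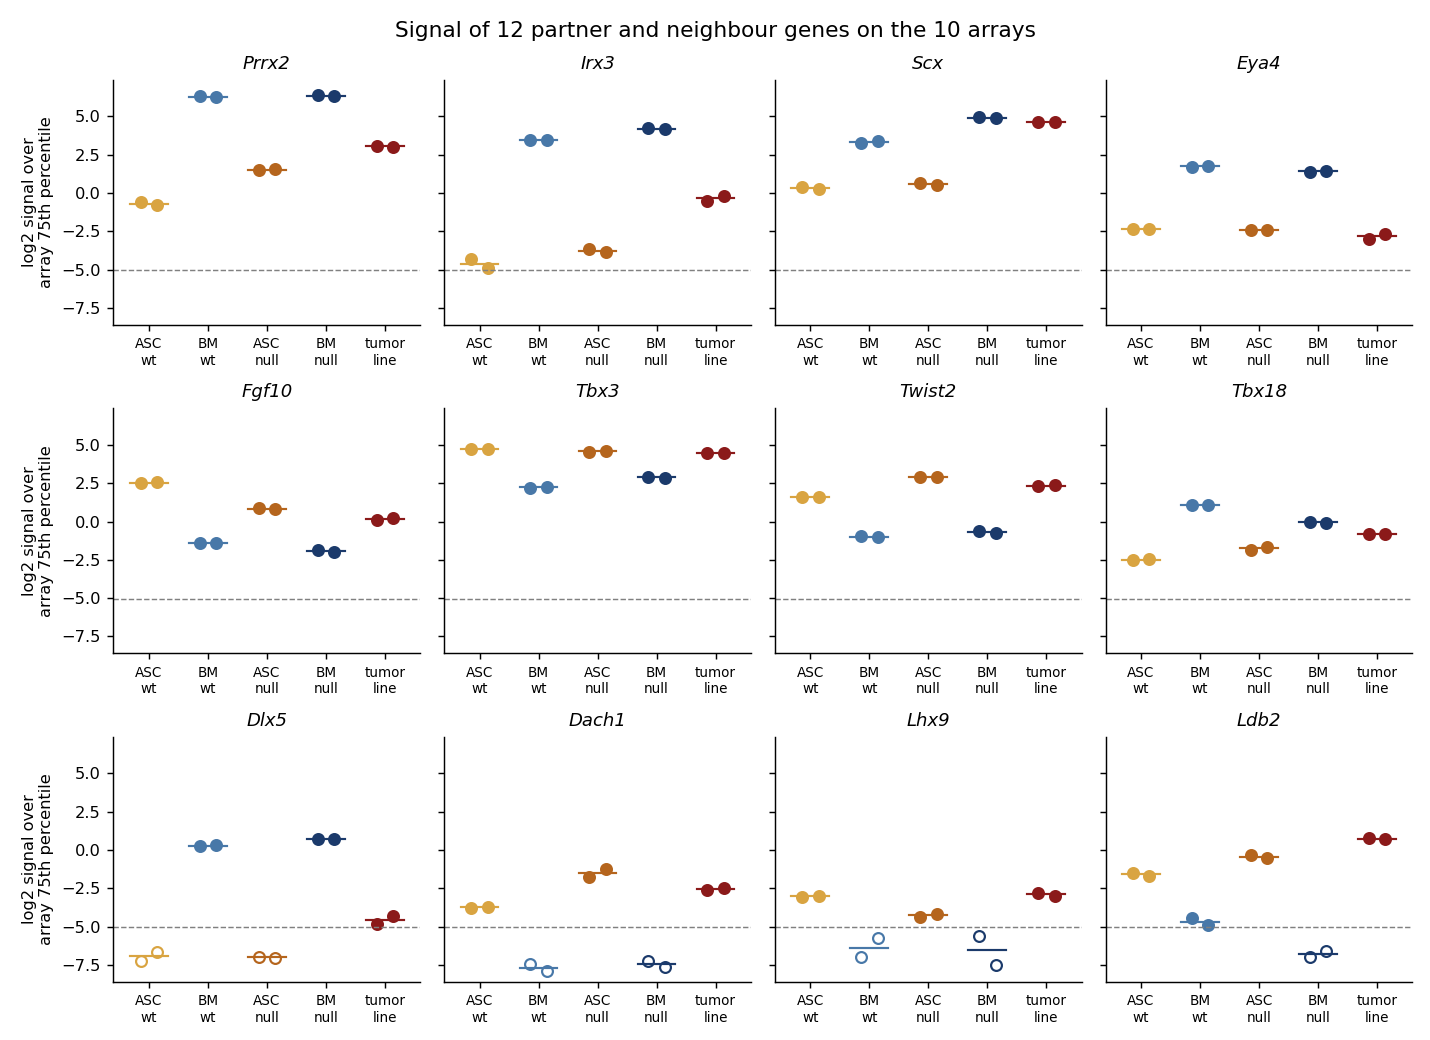
Log2 signal over the array's 75th percentile (y axis) of 12 partner and neighbour genes on the 10 arrays, grouped by culture (x axis). Points, lines and the dashed line are as for the 9 genes, except that a point is filled where both arrays of its group were well above background. Fgf10, Tbx3, Twist2, Dach1, Lhx9 and Ldb2 are higher in the tumor line than in both marrow groups.

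In null ASC 24 of the 60 tested rose and 9 fell, 55.0% called beside 41.0% of all genes, with a median change of 0.21 beside -0.03. Dach1 rose by 2.27 ± 0.23, Prrx2 by 2.22 ± 0.07, Lhx2 by 2.21 ± 0.18, Twist2 by 1.28 ± 0.06 and Tbx18 by 0.74 ± 0.07, while Fgf10 fell, at -1.70 ± 0.08. With normexp correction the changes of Dach1, Lhx2 and Tbx18 came to 1.29, 0.96 and 0.49. In null BM-MSC 14 rose and 16 fell, where 39.1% of all genes were called, with a median of 0.00. Zbtb16, a zinc finger gene of limb patterning, rose by 2.91 ± 0.14 and Scx by 1.58 ± 0.07. Id4, an inhibitor of basic helix-loop-helix factors, fell at -3.11 ± 0.11, Msx2 at -2.96 ± 0.09 and Tbx18 at -1.11 ± 0.07. Those of Id4 and Msx2 came to -2.24 and -1.96 with normexp correction. The effect of the null state differed between the tissues for 29 of the 60 (48.3% beside 31.7%). It was lower in BM-MSC for 21 of these and higher for 8. Among the 21, Dach1, Isl2, Lhx3 and Ldb2 were below the mark in at least 1 of the groups compared. Their calls rest in part on background readings, so their effects could not be compared between tissues.

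In the tumor line against null BM-MSC 20 of the 60 were higher and 24 lower, 73.3% beside 69.0%. The limb bud list held 4 that were higher and 14 that were lower, with a median change of -0.54 beside -0.05 over all genes. Dlx5, a homeodomain gene of limb and bone, changed by -5.29 ± 0.23, Irx3 by -4.55 ± 0.19 and Eya4 by -4.24 ± 0.09. Id4 was higher by 3.24 ± 0.11, Twist2 by 3.001 ± 0.06, Msx2 by 2.65 ± 0.09, Fgf10 by 2.09 ± 0.08 and Tbx3 by 1.60 ± 0.05. With normexp correction Dlx5 came to -3.24, Eya4 to -3.48, Id4 to 2.34 and Msx2 to 1.72.

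Among the partner genes, 6 shared the pattern of Hand2 and Lhx8, well above background on all ASC arrays and no marrow array. They were picked out by this pattern, after their values were seen. En1, Eomes, Dach1 and Lhx9 passed the mark on both tumor line arrays, as Lhx8 did, and Dach2 and Isl2 did not, as Hand2 did not. That is 66.7% of 6 genes, beside 32.8% of the 265 genes with this pattern over the whole array. Lhx9, a LIM homeodomain relative of Lhx8, was at least 5.21-fold higher in the tumor line than in null BM-MSC, Dach1 at least 6.64-fold, En1 at least 8.68-fold and Eomes at least 5.08-fold. Among the cofactors of LIM homeodomain proteins, Ldb2 was at least 64.1-fold higher. Lmo1, below the mark in all other groups, was at least 29.1-fold higher. The last 2 genes were also named after their values were seen.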

How the data were processed

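Total RNA of 10 cultures was measured on single-colour Agilent arrays, 1 per culture. The authors deposited scanner files of spot intensity, written by Feature Extraction 10.7.3.1 according to their headers, in which background was already subtracted and bright spots carry a flag. Probe positions refer to mm9, per the file headers. The authors' deposited series matrix is on a scale that reads as log2 (array medians 5.04 to 5.06). The submitters' processing notes name limma, with no role or version.

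Outlier spots were left out, the log2 intensity of a probe's spots was averaged, and each array was set relative to its 75th percentile. The gene name in the file was replaced by the RefSeq symbol where an accession or name matched. Each gene was read from its brightest probe on average. All 5 groups were fitted together with limma 3.58.1 (R 4.3.3, with data.table at version 1.17.8). The fit had 5 residual degrees of freedom, and its prior added 1.35. P-values were two-sided and adjusted over all 22600 genes tested in a comparison. A gene was called at an adjusted p below 0.05 if some array of the groups compared had its probe well above background. The ± after a change is its SE, over 2 arrays a group, and this small number limits its precision. A bound sets the mean of the bright group against the dim group, where each dim array counts at its own signal or, if that is lower, at the dimmest signal well above background on that array.

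Named were the 9 members, the 3 genes nearest to each in profile, and from each of the 5 partner lists up to 2 genes per direction with the largest measured change in each comparison. The members and lists were chosen with earlier results of these data known. Same-numbered duplicates did not pair across groups (r = -0.12 to 0.12, with 2 of 10 pairs above 0.1). Alternatives were other background corrections, normalizations, filters and probe rules, array weights, a replicate block, the arrays of 1 slide or of the groups compared, and each array left out.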

Additional observations from a re-analysis of the deposited data

Results flagged for a closer look

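Of the members, only Tbx15 and the Eya1 probe were well above background in both groups of both tissues. The effects of the other members could therefore not be compared between tissues. Of those that could, Tbx15 was the member whose response to the null state differed by a test of the difference itself. The effect in BM-MSC minus the effect in ASC was 0.37 ± 0.06 (SE, log2, adjusted p = 0.00455 by limma with Benjamini-Hochberg adjustment). The effect was -0.37 ± 0.04 in ASC and 0.00 ± 0.04 in BM-MSC, each from 2 arrays against 2. Null ASC also kept less Rb1 (10.5% of its wild type) than null BM-MSC did (40.2%), and the summed leukocyte markers lay between 29.2 and 33.9 times the 75th percentile in wild-type ASC and between 16.7 and 17.8 in null ASC. Whether these bear on Tbx15 was not tested.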

How the results depend on the processing

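The counts of changed members are small, so a single gene moves them. A filter that kept genes above the background mark on all 10 arrays left 1 changed member in wild-type BM-MSC against ASC, 2 in null BM-MSC against ASC, and 1 each in the tumor line against null and wild-type BM-MSC. Of the members, only Tbx15 and the Eya1 probe were above that mark on all 10 arrays. In null against wild-type BM-MSC the 1 changed member became 2 with normexp correction or only the arrays compared, and 0 on the series matrix values, with no filter on dim genes or with the all-array filter. Leaving out 1 array gave 0 to 1 there. The difference between the null effects held 3 members on the series matrix values and 1 to 2 with an array left out, the higher count without the first wild-type BM-MSC array.

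The change of Tbx15 in null BM-MSC, near 0 in the main fit, had the other sign with normexp correction (-0.0503), quantile normalization (-0.0186) and the series matrix (-0.0249), and ran from -0.00988 to 0.0103 with an array left out, below 0 without the second wild-type or the first null BM-MSC array. The Eya1 probe differed between null BM-MSC and wild-type ASC by 0.01, and by -0.0491 to 0.0724 with an array left out, below 0 without the first wild-type ASC or the first null BM-MSC array. The cause was not tested. With the replicate number as a block, the number of changed members was the same in all 7 comparisons, for example 5 in wild-type BM-MSC against ASC. Counts over all genes and over the partner genes stayed within 1.5 times in every alternative run, and no scaling moved the median of all genes by over 0.034.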
